A study of Mus musculus with 24 samples.

Results

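Phagocytes kill microbes with superoxide, made by an oxidase complex at the membrane, and with nitric oxide, made by an inducible synthase. The genes described here are Cybb, Cyba, Ncf1, Ncf4, Rac2 and Hvcn1 of the phagocyte oxidase, Sod2, which removes superoxide in mitochondria, and Nos2, the inducible nitric oxide synthase. They were named in advance, and each was read from the probeset that carries only that gene's symbol, the brightest on average where a gene had several. Of the 8 listed genes, 7 had such a probeset, among 18820 genes in all. Hvcn1, a proton channel, lay only on 2 probesets shared with Tctn1 and was not analysed here.

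The 24 Affymetrix Mouse Gene 1.0 ST arrays held 8 mouse cell types with 3 arrays each. Induced pluripotent stem cells (iPSC), GFP-positive microglia derived from iPSC (iPS-MG), neonatal microglia (neo-MG) and adult microglia (ad-MG) were C57BL/6NCr - Cx3cr1gfp/+, in which gfp replaces 1 copy of the fractalkine receptor gene Cx3cr1. Dendritic cells (DC), neural stem cells (NSC), bone marrow macrophages (bm-Mac) and peritoneal macrophages (p-Mac) were C57BL/6NCr without that allele. The labelled age was adult, except P5 for neo-MG and E15-E18 for NSC. All cells had been kept in culture: iPSC on inactivated embryonic fibroblasts with leukaemia inhibitory factor, cells called gMG, a name the labels do not define, with GM-CSF, M-CSF and IL-3, and the others in serum medium with no added cytokine named. No sample was labelled as stimulated with a microbial product or interferon. Strain, age and medium therefore cannot be told apart from cell type wherever they differ between the groups compared.

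The oxidase rests on a membrane heterodimer, gp91phox (Cybb), which carries electrons, and p22phox (Cyba), which stabilises it. On activation cytosolic subunits, among them p47phox (Ncf1) and p40phox (Ncf4), move to the membrane together with a Rac GTPase, Rac2 in blood cells. Microglia, the macrophages of the brain, carry the same complex, and in resting mouse macrophages Nos2 is low until interferon or bacterial signals induce it.

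Array medians lay between 7.96 and 8.21 on the log2 scale, and arrays of the same cell type correlated across genes at r = 0.9952 to 0.9986. Nothing in the labels says that the arrays of a group stand for different animals or culture dishes, and the p-values cover only array-to-array spread, possibly of a technical kind. No detection calls were used, so no level could be called absent. In such bulk samples, fewer cells of a type and less RNA per cell cannot be told apart. Averages of marker lists marked iPSC (pluripotency genes, 12.24 to 12.35 against 6.93 or less elsewhere) and the 6 myeloid groups (pan-myeloid genes, 11.24 to 12.52 against 7.69 or less in iPSC and NSC). The 8 measured microglia markers averaged 10.16 to 10.19 in iPS-MG, 10.09 to 10.19 in neo-MG, 10.68 to 10.89 in ad-MG and 8.88 or less elsewhere. Of these, Cx3cr1, Tmem119 and Olfml3 were called lower in both iPS-MG and neo-MG than in ad-MG. The receptor P2ry12 averaged 10.23 to 10.56 in iPS-MG, neo-MG and ad-MG and 7.10 to 8.60 in the other myeloid groups. Not every marker did so: Cx3cr1 lay 1.26 above DC in neo-MG and 1.44 above DC in bm-Mac. Of these groups only neo-MG carried gfp in place of 1 Cx3cr1 copy, which cannot be told apart from cell type here. Other lineages were also seen. Neutrophil markers averaged 10.43 to 10.50 in the bm-Mac arrays and 7.56 or less elsewhere. Mast cell and basophil markers averaged 9.65 to 9.74 in bm-Mac and 7.42 or less elsewhere. Fibroblast markers averaged 10.55 to 10.71 in ad-MG, 8.57 to 8.60 in iPSC and 7.94 or less elsewhere. B cell markers averaged 8.37 to 8.84 in p-Mac and 7.85 or less elsewhere. The 10 dendritic markers averaged 9.49 to 9.54 in DC, 9.56 to 9.72 in p-Mac and 9.25 to 9.30 in bm-Mac, so the list did not set DC apart from the macrophages. In DC, 4 of them were called higher and 2 lower than in bm-Mac, where 8.08% of all genes were called either way. Against p-Mac, 2 were called higher and 4 lower in DC, where 10.2% of all genes were called. Itgax (mean 13.19), Ccr7 (10.28) and Clec9a (10.20) were highest in DC, H2-Aa and Cd74 were called lower there than in both macrophage groups and Cd209a and Btla lower than in p-Mac, and Flt3 (7.07) and Xcr1 (7.09) lay within the range of the other 7 groups.

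RefSeq promoter windows of the mouse assembly GRCm38.p6 were at hand for 4 of the 8 listed genes. All 4 are shown, whatever their levels. Of them, Cybb and Ncf1 followed the myeloid groups, Cyba was also high in iPSC, and Sod2 was nearly even. A link between the promoter letters and these levels was not tested. Each line gives the 250 bases before the transcript start, 5′ to 3′ on the gene's strand, in lower case with motif matches in capitals.
Cybb: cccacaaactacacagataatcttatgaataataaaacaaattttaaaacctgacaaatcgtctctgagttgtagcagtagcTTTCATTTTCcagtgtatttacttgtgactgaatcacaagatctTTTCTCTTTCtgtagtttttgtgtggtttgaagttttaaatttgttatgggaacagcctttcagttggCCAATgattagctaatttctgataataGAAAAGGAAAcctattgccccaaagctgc
Cyba: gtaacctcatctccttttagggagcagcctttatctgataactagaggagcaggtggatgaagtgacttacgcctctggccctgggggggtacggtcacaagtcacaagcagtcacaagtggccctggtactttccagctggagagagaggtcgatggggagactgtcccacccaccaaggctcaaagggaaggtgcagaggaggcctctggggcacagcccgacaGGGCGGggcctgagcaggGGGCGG
Ncf1: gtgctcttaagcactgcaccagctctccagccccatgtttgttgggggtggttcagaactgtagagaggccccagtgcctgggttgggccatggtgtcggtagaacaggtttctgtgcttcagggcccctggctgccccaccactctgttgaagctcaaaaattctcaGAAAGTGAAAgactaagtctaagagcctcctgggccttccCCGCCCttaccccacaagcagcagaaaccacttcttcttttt
Sod2: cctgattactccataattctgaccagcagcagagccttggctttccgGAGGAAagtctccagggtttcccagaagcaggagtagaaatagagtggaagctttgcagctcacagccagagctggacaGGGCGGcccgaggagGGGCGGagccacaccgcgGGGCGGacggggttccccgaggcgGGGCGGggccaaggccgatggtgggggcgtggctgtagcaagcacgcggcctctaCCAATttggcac
These windows are chrX:9469325-9469574 on the minus strand for Cybb, inside the annotated span of the gene, and chr8:122432941-122433190 on the minus strand for Cyba. They are chr5:134229626-134229875 on the minus strand for Ncf1 and chr17:13007589-13007838 on the plus strand for Sod2. The first 20 transcribed bases of Cybb, at chrX:9469305-9469324, follow on from its window and hold a further match.
Cybb after the start: tgttttcatTTCCTCatcag
The motifs were searched on both strands in windows from 250 bases before to 50 bases after the start, and no match overlapped a match of another motif. They were the GC box GGGCGG, the letters CCAAT, the core GAGGAA bound by PU.1, the myeloid factor encoded by Spi1, and the interferon element, GAAA repeated after a gap of any 2 bases, bound by interferon regulatory factors. Among 32851 such windows, 35.7% held GGGCGG, 37.4% held CCAAT, 28.3% held GAGGAA and 3.44% held the interferon element. Cybb held 3 matches of the interferon element, 1 of CCAAT and, at bases 10 to 15 after the start, 1 of the PU.1 core. Ncf1 held 1 interferon element and 1 GC box. Cyba held 2 GC boxes, and Sod2 held 4 GC boxes, 1 CCAAT and 1 PU.1 core. The GC content of the 250 bases was 34.0% for Cybb, 54.4% for Ncf1, 60.0% for Cyba and 63.6% for Sod2, against a median of 52.4% over all windows. A match is a description of these letters and not a measured binding site.

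Cybb, the catalytic subunit, was high in every myeloid group and low in the stem cells. Its log2 level was 6.85, 6.90 and 6.91 in the 3 iPSC arrays and 6.45, 6.37 and 6.67 in NSC. It was 13.30, 13.26 and 13.25 in iPS-MG, 13.25, 13.32 and 13.22 in neo-MG, and 13.10, 13.03 and 13.06 in ad-MG. Levels of 12.92, 13.00 and 12.94 were measured in DC, 13.46, 13.49 and 13.52 in bm-Mac, and 13.85, 13.77 and 13.69 in p-Mac. The myeloid arrays thus formed a narrow band, far above both stem cell groups. From p-Mac to NSC the means spanned 7.27 log2 units, or 154-fold, whereas the 6 myeloid means spanned 0.81 units, or 1.76-fold. In the order of the means, p-Mac lay above bm-Mac, bm-Mac above iPS-MG, and neo-MG above ad-MG, each at an adjusted p under the threshold of 0.05. The steps from iPS-MG to neo-MG (0.01 ± 0.064 SE) and from ad-MG to DC (0.11 ± 0.064) did not pass it, although the latter did after quantile normalization (0.18, adjusted p = 0.0245).

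Cyba, the partner of Cybb in the membrane, shared the myeloid level but split the stem cells. It measured 11.84, 11.89 and 11.92 in iPSC and 7.90, 8.11 and 7.94 in NSC. The iPS-MG arrays gave 13.32, 13.36 and 13.33, neo-MG 13.35, 13.40 and 13.35, and ad-MG 13.20, 13.18 and 13.21. In DC it was 13.60, 13.62 and 13.52, in bm-Mac 13.34, 13.28 and 13.34, and in p-Mac 13.15, 13.29 and 13.12. No iPSC array overlapped the NSC or the myeloid arrays. NSC were lower than iPSC by 3.90 ± 0.059 log2 units, or 14.9-fold (limma, adjusted p = 3.36e-26, n = 3 each). Fibroblasts, the feeder cells named in the labels, also carry p22phox. The 9 fibroblast markers averaged 8.57 to 8.60 in iPSC and 7.12 to 7.21 in NSC, and 6 of them were lower in NSC; their part in the Cyba difference was not tested. Cyba was the only measured gene of the 7 called between these stem cells, with 1 of 7 lower against a background of 9.97% of genes. A gene was called where the adjusted p was under 0.05 and the difference at least 2-fold.
Among the myeloid groups Cyba spanned 0.39 units, or 1.31-fold, with DC highest. DC exceeded neo-MG by 0.21 ± 0.059, while the 4 steps below it, from neo-MG through iPS-MG, bm-Mac and ad-MG to p-Mac, were 0.12 or less and did not pass the threshold. The step from bm-Mac to ad-MG passed it after centring (0.19, adjusted p = 0.00623), quantile normalization (0.15, adjusted p = 0.0245) and with the trend model (adjusted p = 0.0345).

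**Figure D1:**
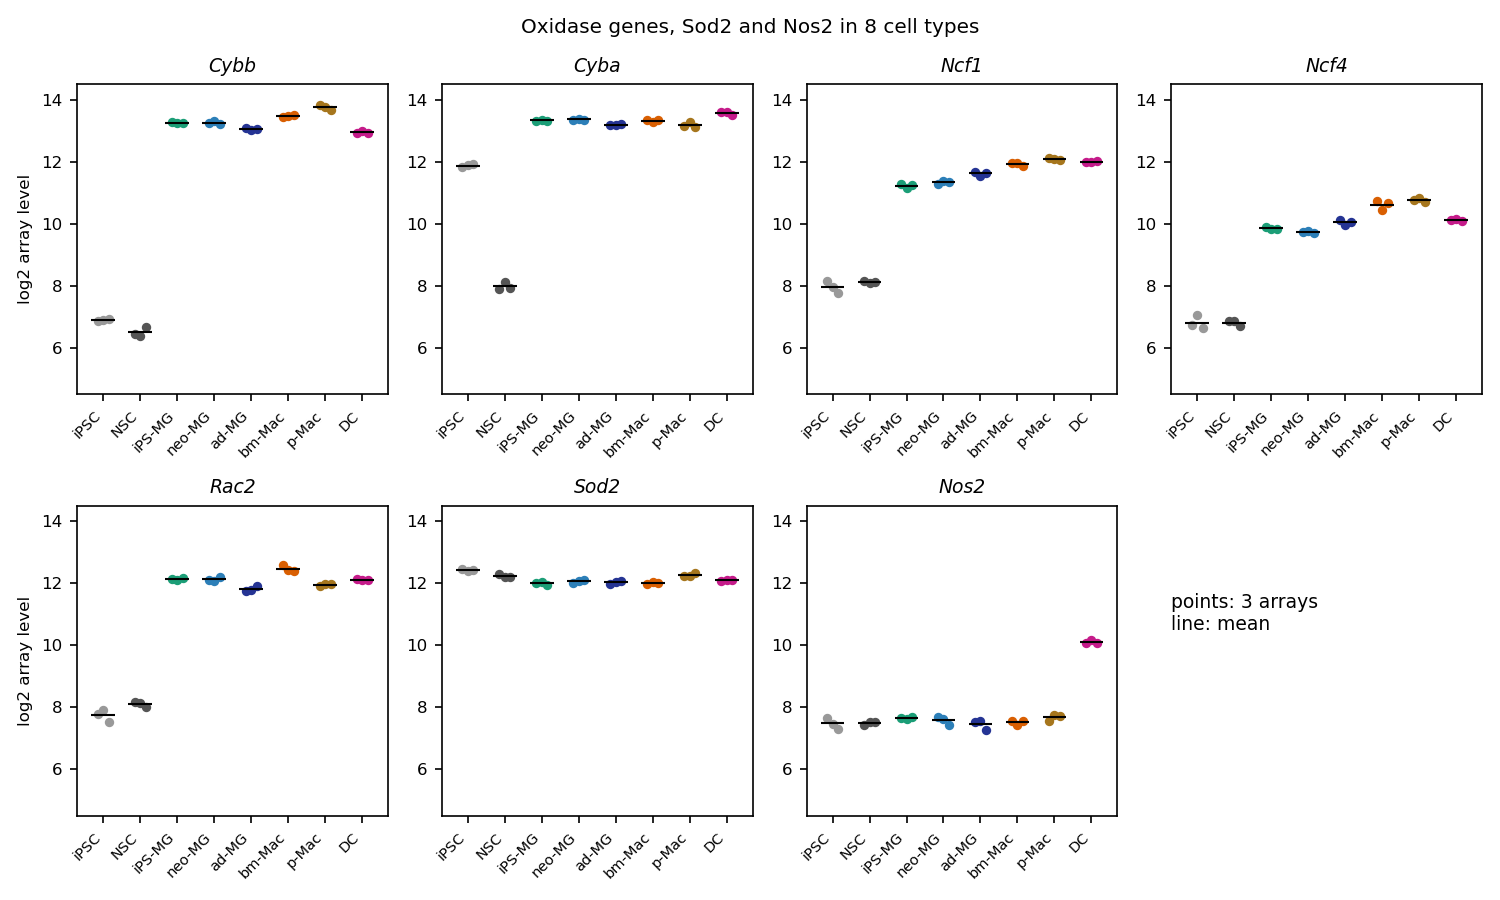
Log2 array levels (vertical axes) of 6 oxidase and antioxidant genes and Nos2 in the 8 cell types (horizontal axes), with a point for each of the 3 arrays and a line at the mean. Cybb, Ncf1, Ncf4 and Rac2 sit low in iPSC and NSC and high in the 6 myeloid groups, Cyba is also at 11.88 in iPSC, Sod2 stays between 11.94 and 12.48, and Nos2 reaches 10.11 in DC only.

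Ncf1, the organiser subunit that brings the cytosolic subunits to the membrane heterodimer, was low in iPSC (8.16, 7.95 and 7.75) and NSC (8.16, 8.10 and 8.13), whose arrays overlapped. In the microglial groups it measured 11.29, 11.16 and 11.24 in iPS-MG, 11.30, 11.37 and 11.35 in neo-MG, and 11.68, 11.55 and 11.65 in ad-MG. Higher levels of 11.97, 11.95 and 11.88 were found in bm-Mac, 11.99 to 12.02 over the 3 arrays of DC, and 12.13, 12.09 and 12.06 in p-Mac. Every microglial array was therefore below every macrophage and DC array. The order p-Mac, DC, bm-Mac, ad-MG, neo-MG and iPS-MG spanned 0.87 units, or 1.82-fold. Its steps from bm-Mac to ad-MG (0.31 ± 0.071, adjusted p = 0.000665) and from ad-MG to neo-MG (0.29 ± 0.071, 0.00165) passed the threshold. The latter missed it after each array was centred on its median (0.14 units, adjusted p = 0.092). The step from p-Mac to DC passed only after quantile normalization (0.24, adjusted p = 0.00226).

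Ncf4, the phosphoinositide-binding subunit that sustains the oxidase on phagosomes, ran in a similar order. It gave 6.73, 7.07 and 6.62 in iPSC and 6.85, 6.87 and 6.69 in NSC, a difference of 0.00 ± 0.089. The levels were 9.75, 9.77 and 9.71 in neo-MG, 9.89, 9.83 and 9.83 in iPS-MG, and 10.13, 9.96 and 10.06 in ad-MG. DC measured 10.11, 10.16 and 10.09, bm-Mac 10.75, 10.43 and 10.68, and p-Mac 10.78, 10.82 and 10.69. All arrays of both macrophage groups lay above those of the other myeloid groups. The step from bm-Mac to DC was 0.50 ± 0.089 (adjusted p = 3.37e-05), and the other steps between myeloid neighbours, 0.20 or less, did not pass. That from p-Mac to bm-Mac did after quantile normalization (0.35, adjusted p = 0.00119), that from DC to ad-MG after centring (0.22, adjusted p = 0.0318), and that from ad-MG to iPS-MG when only these groups were fitted (0.20, adjusted p = 0.0384). From p-Mac to neo-MG the span was 1.02 units, or 2.03-fold, the widest among the myeloid groups for the oxidase genes measured.

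Rac2, the GTPase that switches the assembled complex on, stood at 7.78, 7.91 and 7.53 in iPSC and 8.18, 8.14 and 8.01 in NSC. It was 12.13, 12.11 and 12.19 in iPS-MG, 12.12, 12.09 and 12.20 in neo-MG, and 11.75, 11.79 and 11.91 in ad-MG. In DC it was 12.15, 12.11 and 12.11, in p-Mac 11.92, 11.99 and 11.97, and in bm-Mac 12.60, 12.44 and 12.39. The bm-Mac arrays were the highest, without overlap. bm-Mac exceeded iPS-MG by 0.33 ± 0.077 (adjusted p = 0.000832), and none of the 4 steps below, down to ad-MG, passed. The steps from DC to p-Mac (0.25, adjusted p = 0.00628) and from p-Mac to ad-MG (0.20, adjusted p = 0.0201) passed after each array was centred on its median, the latter also after quantile normalization (0.24, adjusted p = 0.0045) and without ad-MG replicate 3 (0.19, adjusted p = 0.0467). The DC to p-Mac step also passed with dim genes left out, with only these groups fitted and with the trend model (adjusted p = 0.0383 to 0.0494). Neutrophils are rich in Rac2 and in the other oxidase subunits. The neutrophil list averaged 10.43 to 10.50 in bm-Mac. Of its 10 measured genes, 10 were called lower in neo-MG than in bm-Mac, 9 in DC and 8 in p-Mac. Calls either way covered 5.23%, 8.08% and 6.17% of all genes in these comparisons. The part of neutrophils in the bm-Mac levels of Rac2, Ncf1, Ncf4 and Cybb was not tested. Rac1, the widely expressed relative, spanned only 12.50 (iPSC) to 13.42 (NSC) by group mean, and the primary myeloid groups exceeded the stem cells by 0.19 ± 0.035.

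In the mean of the 5 primary myeloid groups (neo-MG, ad-MG, bm-Mac, p-Mac and DC) over that of iPSC and NSC, 5 of the 7 measured genes were called higher and 0 lower, where 9.77% of all genes were called higher. Cybb was higher by 6.61 ± 0.038 log2 units, or 98-fold (limma, adjusted p = 3.45e-35). Rac2 differed by 4.18, Ncf1 by 3.76, Ncf4 by 3.45 and Cyba by 3.40 units, which is 18.1-, 13.5-, 11- and 10.5-fold. No array of these genes overlapped between the myeloid and stem cell groups. The share of all genes without overlap was not taken, here or in other comparisons. The median over the 7 genes was 3.45, beside 0.04 over all genes. The same count of 5 was obtained without bm-Mac or without DC, alternatives chosen after seeing the data.

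The derived microglia had moved the same way from iPSC. Of the 7 genes, 5 were called higher in iPS-MG and 0 lower, against 10.4% of all genes called higher. Cybb rose by 6.38 ± 0.064 units, or 83.3-fold (adjusted p = 9.55e-30), and Rac2 by 4.40 ± 0.077, or 21.2-fold. Ncf1 rose by 3.27 ± 0.071 (9.68-fold) and Ncf4 by 3.05 ± 0.089 (8.26-fold). Cyba, already at 11.88 in the iPSC arrays, where the part of feeder fibroblasts was not tested, was higher by 1.45 ± 0.059, or 2.74-fold (adjusted p = 1.38e-17). The 2 genes not called were Sod2 and Nos2. The median over the 7 genes was 3.05, beside 0.02 over all genes. This comparison and the previous one share the iPSC arrays.

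Between iPS-MG and the microglia of newborn mice none of the 7 genes was called. limma called 0.0266% of all genes between these groups, with 0.213% at an adjusted p under 0.05 and 6.51% at an unadjusted p under 0.05; of the 7 genes, 0 passed any of these rules. The differences, iPS-MG minus neo-MG, ran from -0.11 ± 0.071 for Ncf1, with a 95% interval of -0.26 to 0.03, to 0.11 ± 0.089 for Ncf4, with an interval of -0.07 to 0.29. For Cybb the difference was 0.01, with an interval of -0.12 to 0.14. A 2-fold difference lay outside all of these intervals. The arrays of the groups did not overlap in Ncf1 and Ncf4 and did in the other genes, with no share of all genes taken. The intervals cover only array-to-array spread, so they do not bound differences between animals or culture dishes.

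Set against adult microglia, iPS-MG and neo-MG both had more Cybb and Rac2 and less Ncf1, by steps well under 2-fold. None of the 7 genes reached 2-fold in iPS-MG minus ad-MG, where 5.48% of all genes were called, or in neo-MG minus ad-MG, where 5.71% were. At an adjusted p under 0.05 with no fold minimum, 3 of 7 differed in the former (42.3% of all genes) and 5 of 7 in the latter (44.3%). At an unadjusted p under 0.05 the counts were 6 of 7 and 5 of 7. No share of all genes was taken at the unadjusted p for these or the macrophage comparisons below. The unadjusted counts there have no background to be judged against. neo-MG exceeded ad-MG in Rac2 by 0.32 ± 0.077 (adjusted p = 0.00117), in Cybb by 0.20 ± 0.064 (0.0135) and in Cyba by 0.17 ± 0.059 (0.0213). Ncf1 and Ncf4 were lower in neo-MG, by 0.29 and 0.31. In iPS-MG minus ad-MG the differences were 0.33 ± 0.077 for Rac2, 0.21 ± 0.064 for Cybb and -0.40 ± 0.071 for Ncf1. The comparisons share the ad-MG arrays. These are small steps. The count past the adjusted p was near the share of all genes in iPS-MG minus ad-MG (3 of 7 against 42.3%). As fitted, it was above that share in neo-MG minus ad-MG (5 of 7 against 44.3%), and an excess was not tested. Centring each array ended the passing of Ncf4 (-0.16, adjusted p = 0.114) in neo-MG minus ad-MG, as of Ncf1. Without neo-MG replicate 2, Cybb (0.17, 0.0655) and Cyba (0.15, 0.0747) missed the threshold, Cyba also without ad-MG replicate 2 (0.16, 0.0548). Fibroblast markers were lower in neo-MG than in ad-MG for 8 of 9 genes, and their part in these differences was not tested.

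Ncf1, Ncf4 and Cybb were lower in neo-MG and ad-MG than in both kinds of macrophage, mostly by under 2-fold, and for ad-MG the counts past the adjusted p were at or below the share of all genes. In neo-MG minus bm-Mac no gene of the 7 reached 2-fold (5.23% of all genes did), and 4 of 7 differed at an adjusted p under 0.05 (41.3%; also 4 unadjusted). Ncf4 was lower in neo-MG by 0.88 ± 0.089 (limma, adjusted p = 6.81e-09), Ncf1 by 0.59 ± 0.071 (1.23e-07), Rac2 by 0.34 ± 0.077 (0.000742) and Cybb by 0.23 ± 0.064 (0.00469; 0.15 lower and adjusted p = 0.0864 after centring). In ad-MG minus bm-Mac the same rules gave 0 called (8.95% of genes) and 4 of 7 differing (57.4%; 5 unadjusted), all lower in ad-MG: Rac2 by 0.66, Ncf4 by 0.57, Cybb by 0.43 and Ncf1 by 0.31.
In neo-MG minus p-Mac, 1 of 7 was called lower, against 3.1% of all genes. This was Ncf4, by 1.02 ± 0.089 (2.03-fold, adjusted p = 2.37e-10), just past the 2-fold line. The call was lost after centring each array (0.94 lower) and without p-Mac replicate 2 (0.99 lower). Ncf1 was lower by 0.75 ± 0.071 and Cybb by 0.51 ± 0.064, and in all 6 of 7 passed the adjusted p (72.4% of genes). Among these Cyba was higher in neo-MG by 0.18 ± 0.059 and Rac2 by 0.18 ± 0.077, Sod2 being lower by 0.19 ± 0.053 (0.11 lower and adjusted p = 0.0715 after centring), although Rac2 missed the threshold after quantile normalization (0.07, adjusted p = 0.407) and without either of neo-MG replicates 1 and 3 or p-Mac replicates 1 and 3 (up to 0.132). In ad-MG minus p-Mac 0 of 7 were called (10.2% of genes) and 5 of 7 differed (78.2%; 5 unadjusted), with Cybb and Ncf4 each lower in ad-MG by 0.71 and Ncf1 by 0.47.
In p-Mac minus bm-Mac 0 of 7 were called (6.17% of genes) and 3 differed (64.2%; 5 unadjusted): Cybb was higher in p-Mac by 0.28 ± 0.064, Sod2 by 0.25 ± 0.053, and Rac2 lower by 0.52 ± 0.077. The Cx3cr1 allele, present in the microglia and not in the macrophages, cannot be told apart from these differences.

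**Figure D2:**
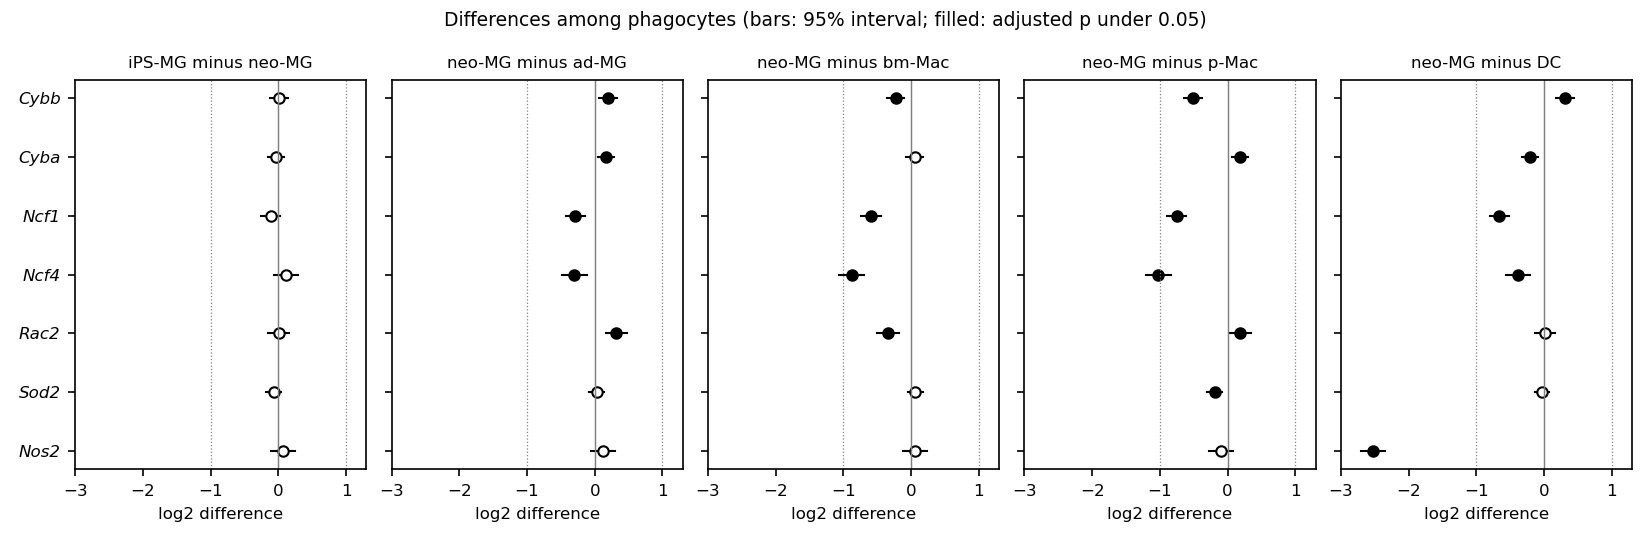
Log2 differences (horizontal axes) of the 7 genes (rows) in 5 comparisons of myeloid groups, with 95% intervals from limma; filled points have an adjusted p under 0.05 and dotted lines mark 2-fold. No point is filled for iPS-MG minus neo-MG, Ncf1 and Ncf4 lie left of 0 in the other 4, and Nos2 lies at -2.53 in neo-MG minus DC.

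None of the 5 oxidase genes measured was called between DC and either macrophage group, and the count past the adjusted p in DC minus p-Mac was near the share of all genes. In DC minus bm-Mac 1 of 7 genes was called higher (3.41% of all genes) and 5 of 7 differed at the adjusted p (46.6%). Cybb was lower in DC by 0.54 ± 0.064, Ncf4 by 0.50 ± 0.089 and Rac2 by 0.35 ± 0.077, and Cyba was higher by 0.26 ± 0.059. In DC minus p-Mac 1 of 7 was called higher (6.52%) and 5 differed (71.4%), with Cybb lower by 0.81 ± 0.064 and Ncf4 by 0.64 ± 0.089, and Cyba higher by 0.39 ± 0.059. The microglia had less Ncf1 than DC, by 0.66 ± 0.071 in neo-MG and 0.37 ± 0.071 in ad-MG. Each of these comparisons had 1 of 7 genes called lower in the microglia (3.96% of all genes for neo-MG and 3.12% for ad-MG), and 5 (43.4%) and 4 (49.6%) past the adjusted p. The called gene was Nos2 in all 4 comparisons.

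Sod2, the manganese superoxide dismutase of mitochondria, was the most even of the 7 genes. Its 24 arrays lay between 11.94 and 12.48, and the group means spanned 0.44 units, or 1.35-fold. iPSC were highest with 12.48, 12.40 and 12.43, followed by p-Mac with 12.23, 12.25 and 12.32 and NSC with 12.31, 12.22 and 12.20. The lowest were iPS-MG with 12.02, 12.04 and 11.94, and DC, neo-MG, ad-MG and bm-Mac had means of 12.11, 12.07, 12.04 and 12.01. iPS-MG were lower than iPSC by 0.44 ± 0.053 (adjusted p = 5.29e-08), without overlap of the arrays. The primary myeloid groups were lower than the stem cells by 0.24 ± 0.032 (1.49e-07), although the arrays overlapped. NSC and iPSC differed by 0.19 ± 0.053 (0.00271), which missed the threshold after centring (0.08, adjusted p = 0.183). This was among 5 of the 7 genes past the adjusted p in NSC minus iPSC (65.9% of all genes). The others were Cyba, Cybb (0.39 lower in NSC), Rac2 (0.37 higher) and Ncf1 (0.18 higher; 0.08 and adjusted p = 0.315 without iPSC replicate 3).

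Nos2 was high in dendritic cells only, among the 8 groups. The DC arrays measured 10.08, 10.18 and 10.07, a mean of 10.11 ± 0.059 (SD, n = 3). The macrophages gave 7.55, 7.76 and 7.71 in p-Mac and 7.57, 7.43 and 7.57 in bm-Mac. Microglial levels were 7.65, 7.61 and 7.70 in iPS-MG, 7.68, 7.63 and 7.43 in neo-MG, and 7.53, 7.56 and 7.28 in ad-MG. The stem cells lay in the same range, at 7.65, 7.47 and 7.31 in iPSC and 7.43, 7.53 and 7.51 in NSC. No array outside DC exceeded 7.76, and every DC array was at least 10.07. DC exceeded the other groups by 2.43 ± 0.085 (p-Mac, 5.39-fold, adjusted p = 2.50e-18) to 2.65 ± 0.085 (ad-MG, 6.29-fold, adjusted p = 2.63e-19). The factor was 6.01 over bm-Mac, 5.76 over neo-MG, 5.49 over iPS-MG (where 3.86% of genes were called in that direction), 6.2 over iPSC (10.7%) and 6.13 over NSC (11.5%). The other 7 groups formed an unbroken order from p-Mac (7.68) to ad-MG (7.45) in which no step between neighbours, 0.07 or less, passed the threshold. Only ad-MG minus p-Mac did among the macrophage and microglial pairs described above (0.22 lower, adjusted p = 0.0205), and it missed after quantile normalization (0.07, adjusted p = 0.407) and without ad-MG replicate 3 (0.14, 0.164), p-Mac replicate 2 (0.18, 0.0901) or p-Mac replicate 3 (0.21, 0.0597). Other Nos2 pairs passed under some alternatives. iPS-MG minus ad-MG (0.20 as fitted) did after centring (0.35, adjusted p = 0.00123), quantile normalization (0.26, adjusted p = 0.0066), with dim genes left out (adjusted p = 0.048) and without ad-MG replicate 2 (0.25, adjusted p = 0.039). After centring, neo-MG minus ad-MG (0.13 as fitted) gave 0.27 (adjusted p = 0.00853) and iPS-MG minus iPSC (0.18 as fitted) gave 0.28 (adjusted p = 0.00596), the latter also passing after quantile normalization (0.24, adjusted p = 0.0091) and without iPSC replicate 1 (0.26, adjusted p = 0.0135). p-Mac minus bm-Mac passed without p-Mac replicate 1 (0.22, adjusted p = 0.0422). The mean of the primary myeloid groups exceeded the stem cells by 0.58 ± 0.051, and by 0.07 (adjusted p = 0.199) without DC.

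Arg1 and Slc7a2, which use and carry the arginine that Nos2 consumes, also peaked in DC. Of the 16 measured genes of nitric oxide and arginine supply, 2 were called higher and 3 lower in neo-MG minus DC, where 8.12% of all genes were called. Arginase 1 (Arg1), which splits arginine to ornithine and urea, measured 13.21, 13.13 and 13.10 in DC and 12.41, 12.46 and 12.48 in p-Mac. It was 8.53, 8.46 and 8.37 in iPS-MG, 8.22, 8.04 and 8.22 in bm-Mac, 7.57, 7.58 and 7.83 in ad-MG, and 7.29, 7.10 and 7.19 in neo-MG. Unlike Nos2, Arg1 was thus high in p-Mac as well, where it lay 0.69 ± 0.075 below DC. neo-MG were lower than DC by 5.95 ± 0.075 (adjusted p = 2.55e-27). The arginine transporter Slc7a2 followed, with a mean of 13.50 in DC, 11.25 in p-Mac, 10.73 in ad-MG, 9.73 in bm-Mac and 7.85 in neo-MG, which lay 5.65 ± 0.083 below DC. A further transporter, Slc7a1, was lower in neo-MG than in DC by 1.29 ± 0.074. Ddah1 and Ddah2, which degrade methylarginine inhibitors of the synthases, were higher in neo-MG than in DC by 2.17 ± 0.082 and 1.28 ± 0.11. Against bm-Mac, DC had 2 genes of this list higher and 2 lower (8.08% of all genes called), with Arg1 higher by 4.99 ± 0.075 and Slc7a2 by 3.77 ± 0.083. The lower genes were Gucy1b1 and Gucy1a1, subunits of the nitric oxide receptor guanylate cyclase, by 2.82 ± 0.081 and 2.08 ± 0.092. Against p-Mac, 3 genes of the list were higher in DC and 0 lower (10.2% of all genes called): Slc7a2, Nostrin and Slc7a1, by 2.25, 1.81 and 1.64. Gch1, the first enzyme of the synthase's cofactor tetrahydrobiopterin, was not particular to DC, with means of 8.34 to 8.96 over the 6 myeloid groups and 6.52 to 6.55 in the stem cells.

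**Figure D3:**
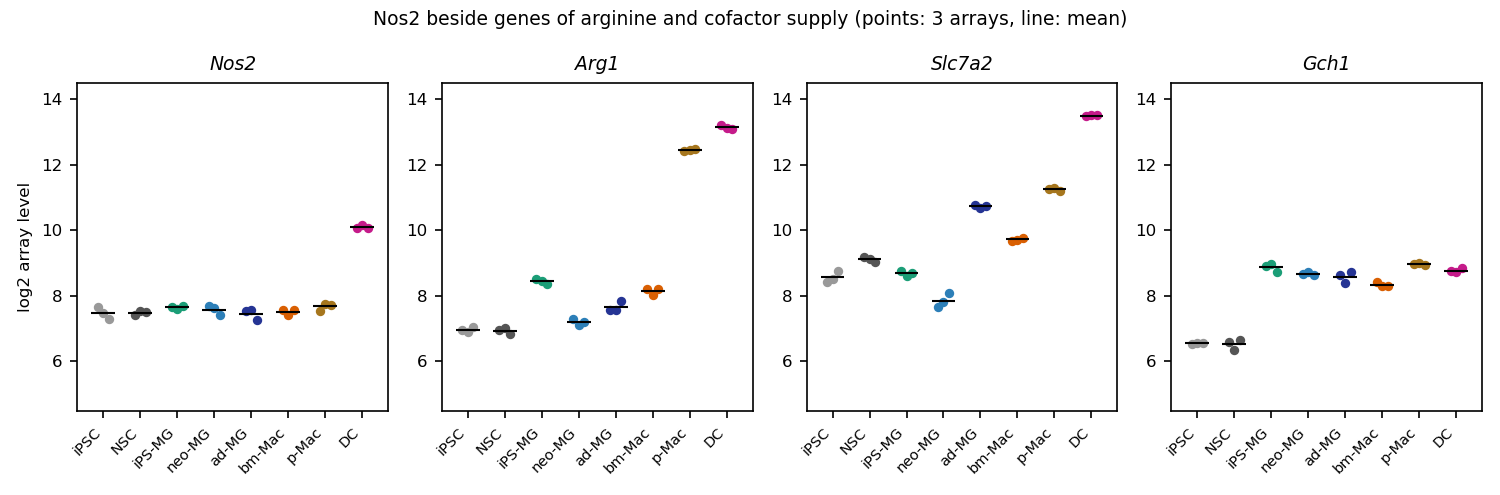
Log2 array levels (vertical axes) of Nos2, Arg1, Slc7a2 and Gch1 in the 8 cell types (horizontal axes), with points for the 3 arrays and a line at the mean. Nos2 leaves the 7.28 to 7.76 range in DC only, Arg1 is high in DC (13.15) and p-Mac (12.45), Slc7a2 is highest in DC (13.50), and Gch1 is above the stem cells in all 6 myeloid groups.

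Regulators known to act on these genes were compared from a list of 21 measured genes of toll-like receptor, NF-kappaB, interferon and myeloid transcription control. In the primary myeloid groups over stem cells, 16 of 21 were higher and 0 lower, beside 9.77% and 9.14% of all genes. Spi1, the myeloid factor PU.1, led by 5.17 ± 0.068, followed by the lipopolysaccharide receptor genes Cd14 (5.03 ± 0.058) and Tlr4 (3.90 ± 0.063). Irf8, a partner of PU.1, was higher by 3.76 ± 0.039. In iPS-MG minus iPSC 15 of 21 were higher and 0 lower (10.4% and 11.8% of all genes), with Spi1 higher by 5.03 ± 0.12. Over the 6 myeloid groups Spi1 kept means of 12.27 to 12.65. In neo-MG minus DC 5 of 21 were lower, beside 3.96% of all genes, and 1 was higher, Irf8 (1.10 ± 0.066). Calls either way covered 8.12% of all genes there. The lower genes included Cebpb (1.83 ± 0.095), Jak2 (1.65 ± 0.075) and Nfkbia (1.44 ± 0.073). Against the macrophages the list went both ways. In DC minus bm-Mac 2 were higher and 3 lower (8.08% of all genes called either way). In DC minus p-Mac 4 were higher and 4 lower (10.2%). Cebpb was called higher in DC in both (2.23 and 1.65), Nfkbia only over bm-Mac (1.24) and Jak2 only over p-Mac (1.38). The DC mean of Irf8 was 11.37, beside 12.46 to 12.64 in the other myeloid groups.

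The machinery that activates the oxidase was also higher in the myeloid groups. Of 15 measured genes, 12 were higher and 0 lower in the primary myeloid groups than in the stem cells, led by the complement receptor integrins Itgam (5.47 ± 0.058) and Itgb2 (5.39 ± 0.048) and the Rac exchange factor Dock2 (5.33 ± 0.045). In iPS-MG minus iPSC 12 were higher, with Dock2 first (5.33 ± 0.076), and 1 lower, the exchange factor Tiam1 (1.79 ± 0.074). The other oxidase subunits and homologues moved less: 1 of 12 was higher and 0 lower in the primary myeloid groups. This was Cybc1, a chaperone of the membrane heterodimer, higher by 1.58 ± 0.043, with means from 9.86 in iPS-MG to 10.80 in bm-Mac against 8.79 in iPSC and 8.63 in NSC. In iPS-MG minus iPSC 3 of 12 were higher (Rap1b 1.20, Cybc1 1.08 and Rap1a 1.04) and 1 lower, Nox4, an oxidase that makes hydrogen peroxide without the cytosolic subunits (1.28 ± 0.087). Nox4 had its highest mean in ad-MG (8.12), then iPSC (7.24), and 5.86 to 6.12 elsewhere. Fibroblast markers were likewise highest in ad-MG and then iPSC, and their part in the Nox4 levels was not tested.
The genes listed for superoxide and peroxide removal, not all of which encode such enzymes, showed little common movement. Of 22 measured, 4 were higher and 0 lower in the primary myeloid groups, with the extracellular peroxidase Gpx3 (2.81 ± 0.085), haem oxygenase Hmox1 (2.51 ± 0.038) and sulfiredoxin Srxn1 (1.73 ± 0.037) first. In iPS-MG minus iPSC 6 were higher, led by the cystine transporter Slc7a11 (2.77 ± 0.094), and 1 lower, the quinone reductase Nqo1 (3.21 ± 0.091). Nitric oxide and arginine genes went both ways: 4 of 16 were higher in the primary myeloid groups, led by Nostrin (3.03 ± 0.07), Arg1 (2.77 ± 0.045) and Gch1 (2.13 ± 0.049), and 4 lower, led by Ddah1 (4.01 ± 0.049 lower), Ddah2 (1.95 ± 0.065) and Slc7a1 (1.34 ± 0.044). In iPS-MG minus iPSC it was 3 and 3. The shares of all genes called higher and lower were 9.77% and 9.14% in the primary myeloid comparison and 10.4% and 11.8% in iPS-MG minus iPSC. The list medians in the primary myeloid comparison were 1.98 for the regulators, 3.15 for the activators, 0.14 for other subunits, 0.39 for peroxide removal and 0.13 for nitric oxide and arginine, beside 0.04 over all genes. In iPS-MG minus iPSC they were 1.47, 3.01, 0.28, 0.15 and 0.07, beside 0.02. Over all of these lists, the gene called in iPS-MG minus neo-MG was Arg1, higher by 1.26 ± 0.075 (adjusted p = 4.87e-11).

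**Figure D4:**
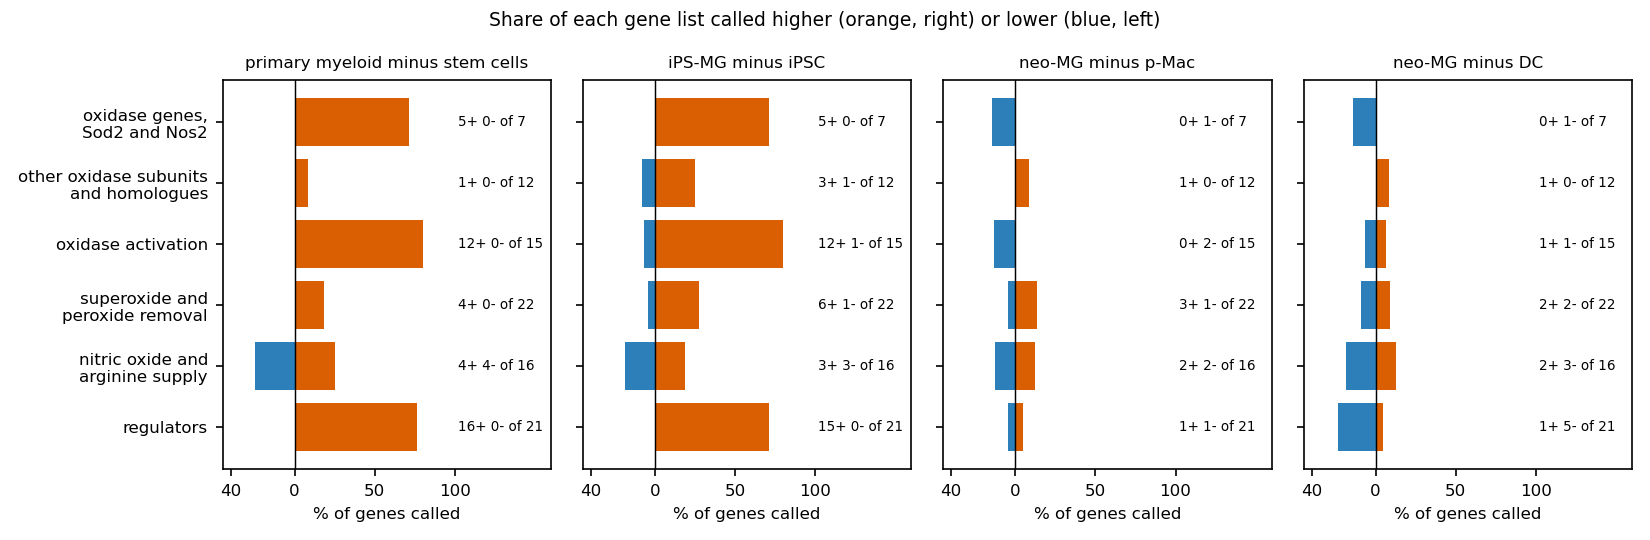
Share of each gene list called higher (bars to the right) or lower (bars to the left) in 4 comparisons, in percent of the genes measured, with the counts printed beside the bars. The oxidase genes, their activators and the regulators are mostly higher in the first 2 panels (5 of 7, 12 of 15 and 16 of 21 in the primary myeloid groups), while in neo-MG minus DC 1 regulator is higher and 5 lower, and 1 of the 7 genes described here is lower.

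Across the 8 group means, Cybb correlated with Ncf1, Ncf4 and Rac2 at r = 0.98 to 0.99 and with Cyba at 0.84. Over the 6 myeloid means alone the correlations with Ncf1, Ncf4, Rac2 and Cyba were 0.32, 0.71, 0.19 and -0.60, while Ncf1 and Ncf4 kept 0.85. These values describe 8 or 6 points that share arrays. Among 8875 genes whose group means spanned at least 1 log2 unit, the patterns nearest to Cybb were those of the lysosomal protease Ctsh (r = 0.9987), Sh3bgrl3 and Tlr13. Ncf1 was nearest to Itgam (0.9994), Tbxas1 and Itgb2, Rac2 to Ptprc (0.9974), Dock2 and Btk, and Ncf4 to Il10ra (0.9968), Cflar and Adcy7. Cyba was nearest to the protease Ctsc (0.9964), Laptm5 and Avl9. Nos2 was nearest to Klk1b9 (0.9982), Cyp4a12a and Cyp4a12b, which belong to families of near-identical copies that probes may not separate. Sod2, with its small span, reached only 0.9755 with Snora61, followed by Mir182 and Gm527.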

How the data were processed

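Total RNA (200 ng per sample) was labelled for Affymetrix Mouse Gene 1.0 ST arrays, per the labels' protocols. The deposited table holds log2 values of 35556 probesets on 24 arrays; RMA and Partek are named in the submitters' processing notes, and the build was not given in the sources used here. Of the probesets, 21218 carried 1 gene symbol in the platform annotation, 1881 several and 12457 none; the brightest on average was kept per gene, which left 18820 genes.

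All 24 arrays were fitted with limma 3.58.1 in R 4.3.3, with Benjamini-Hochberg adjustment over all genes of each contrast; a call needed an adjusted p under 0.05 and 2-fold. Values after ± are standard errors of differences unless marked SD. The script was tested on simulated data. Named were the measured members, up to 3 genes at either end of the called genes of each pathway list described, Cybc1, Rac1, Arg1, Spi1 and Irf8, and the 3 likest genes per member; single marker genes, and Gch1, Slc7a2 and Nox4 levels, were picked after their values were seen. The genes, lists and rules were chosen with earlier results of these data known. Replicate numbers did not pair the samples.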

Additional observations from a re-analysis of the deposited data

How the results depend on the processing

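Each of the 15 counts of called genes was recomputed under other scalings, thresholds, probeset rules, filters, fits and with arrays left out. Of 227 such counts, 213 stayed within 1.5 times the original and 14 did not. In neo-MG minus p-Mac the count fell from 1 to 0 after centring each array on its median; leaving out 1 array at a time gave 0 to 1, with 0 without p-Mac replicate 2. The remainder used no fold minimum, which gave 3 genes for iPS-MG minus ad-MG, 5 for neo-MG minus ad-MG, 4 for neo-MG minus bm-Mac, 6 for neo-MG minus p-Mac, 5 for neo-MG minus DC, 4 for ad-MG minus bm-Mac, 5 for ad-MG minus p-Mac, 4 for ad-MG minus DC, 3 for p-Mac minus bm-Mac, and 5 each for DC minus bm-Mac, DC minus p-Mac and NSC minus iPSC. Of 1589 values of single genes, 1536 kept their call (adjusted p and 2-fold together, or adjusted p alone where no fold minimum was used). These include 24 that turned sign with neither value past the adjusted p. Another 51 were newly called, all of them only because the fold minimum was dropped. The call was lost by 2 and reversed by 0. On the adjusted p alone, 26 of the 1589 values lost it, 41 gained it and 1522 stayed on the same side. With the replicate block, each count was the same, for example 5 in iPS-MG minus iPSC and 1 in DC minus p-Mac. Deviations of same-numbered arrays correlated at -0.26 to 0.25 (median 0.01), and 8 of 24 arrays correlated best with their own number. Centring moved the median difference of all genes by 0.16 in iPS-MG minus ad-MG, 0.15 in neo-MG minus ad-MG, -0.15 in ad-MG minus DC, 0.12 in NSC minus iPSC and 0.11 in iPS-MG minus iPSC. The 3 arrays per group limit the precision, and low levels on such arrays cannot be told from background without detection calls.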
